A study of Mus musculus with 6 samples.

Results

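Mouse rods purified by flow sorting on postnatal day 10 held RNA of genes that mark microglia and macrophages, the resident and blood-derived phagocytes of the retina. The 10 genes described here are C1qa, C1qb, C1qc, Tyrobp, Csf1r, Cx3cr1, Lyz2, Ctss, Laptm5 and Cd74, taken by symbol from the main-chromosome rows of a table of 52143 genes, and each matched 1 row. RNA was sequenced in 6 libraries, 3 per group. All came from retinas electroporated on the day of birth with an EGFP vector driven by the Nrl promoter (1.5 µg/µl, 0.4 µl), together with a pLKO.1 plasmid at 2.5 µg/µl and 0.4 µl, and were sorted for EGFP at that age. In controls the pLKO.1 plasmid held a scrambled sequence, and in the other group 1 short hairpin RNA (shRNA) directed at Jun, an AP-1 transcription factor. The comparison asks which RNAs depend on Jun in young rods. Strain, sex and the animals behind each library are not given in the labels, so p-values measure the spread between libraries, which may be technical. The Nrl promoter is active in rods, so the EGFP gate was meant for rods. Whether phagocytes also passed it was not tested.

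Microglia enter the developing retina, clear dying cells and prune synapses. They secrete C1q, the recognition part of the classical complement pathway, which is assembled from A, B and C chains. They depend on the receptor Csf1r, read the neuronal chemokine fractalkine through Cx3cr1, and pass signals from Trem2 and other receptors through the adaptor Tyrobp (DAP12). Lysosomal proteins such as Lyz2 and Ctss digest what they take up, and Cd74 escorts MHC class II molecules. PU.1, encoded by Spi1, is the myeloid transcription factor that acts on many of these genes.

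Total counts per library were 32150100 to 105801000 in controls and 13211300 to 13998400 in the libraries labelled Jun shRNA, so depth and group cannot be told apart. Levels are CPM, counts scaled to a fixed library size, after TMM scaling. The targeted gene Jun stood at 6.46, 5.86 and 7.16 CPM in control replicates 1, 2 and 3 and at 1.80, 17.6 and 19.3 CPM in the libraries labelled Jun shRNA. It was thus below the controls in 1 of those 3 libraries, the RNA does not show the knockdown, and each direction below contrasts libraries by label. Retained-intron transcripts held 2.78% to 3.56% of counts of protein-coding genes in controls and 7.85% to 9.63% in the other group. Their part in the results was not tested. All 14 rod markers on a list were above 1 CPM in all 6 libraries, with a summed level of 144407 to 153658 CPM in controls and 34814.5 to 53366 CPM in the libraries labelled Jun shRNA.

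Short stretches of promoter sequence are shown because 4 of these genes hold the same 7 letters, a core of the element that PU.1 and other ETS-family factors bind. The letters AGGAAGT were searched on both strands in RefSeq windows of 300 bases (250 before and 50 after the start) on GRCm38.p6. Windows were found for 6 of the 10 genes, and for 4 of these, C1qb, C1qc, Lyz2 and Ctss, the window held a match, against 9.35% of 32851 windows in all. Lyz1, the neighbouring paralog of Lyz2, is shown beside it. Sequences read 5′ to 3′ in the direction of each gene, and capitals mark the match, which lies on the reverse strand (ACTTCCT) in all 5.
C1qb, chr4:136886224-136886276, minus strand: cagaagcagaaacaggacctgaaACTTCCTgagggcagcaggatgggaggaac
C1qc, chr4:136893080-136893132, minus strand: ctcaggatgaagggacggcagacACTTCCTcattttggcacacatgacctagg
Lyz2, chr10:117282343-117282395, minus strand: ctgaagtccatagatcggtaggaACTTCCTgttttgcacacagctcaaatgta
Lyz1, chr10:117292939-117292991, minus strand: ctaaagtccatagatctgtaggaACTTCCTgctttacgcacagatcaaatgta
Ctss, chr3:95526773-95526802, plus strand: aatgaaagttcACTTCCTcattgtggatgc
Counted from the RefSeq start, the match began 53 bases before it in C1qb, 195 in C1qc and 2 in Ctss. In Lyz2 and in Lyz1 the match began 100 bases before that start. For C1qb, C1qc and Lyz2 the RefSeq start differs from the gene coordinates printed below. The Lyz2 and Lyz1 stretches differed at 6 of 53 bases. No match was found in the windows of Cx3cr1 and Laptm5. A match says only that these letters are present. Spi1 itself was listed at 0.414 counts in control replicate 1 and at 0 in the other 5 libraries.

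Of the 10 genes, 7 were abundant in every control library and close to 0 in every library labelled Jun shRNA: C1qa, C1qb, C1qc, Tyrobp, Lyz2, Ctss and Cd74. The other 3, Csf1r, Cx3cr1 and Laptm5, were low or patchy in the controls as well. The 10 genes together held 1120, 856 and 884 CPM in control replicates 1, 2 and 3, and 2.36, 1.76 and 5.57 CPM in replicates 1, 2 and 3 labelled Jun shRNA. Such bulk libraries do not show which cells gave this RNA, and its source was not tested. Fewer source cells and less RNA per cell cannot be told apart in them. Low-count filtering kept 8 of the 10 genes, and 5 of these passed as lower in edgeR's quasi-likelihood test at an adjusted p under 0.05 (Lyz2, Ctss, Cd74, C1qb and Tyrobp) and 0 as higher. Over all 12815 tested genes 1.35% passed as lower and 0.32% as higher, 1.67% together. Without the filter 6 of the 10 passed as lower, against 1.73% of 33087 genes. All 3 controls lay above all 3 libraries labelled Jun shRNA for 7 of the 10 genes, against 15.7% of tested genes. A gene kept by the filter only through its control counts had to differ, so these counts describe the genes and do not support one another.

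**Figure D1:**
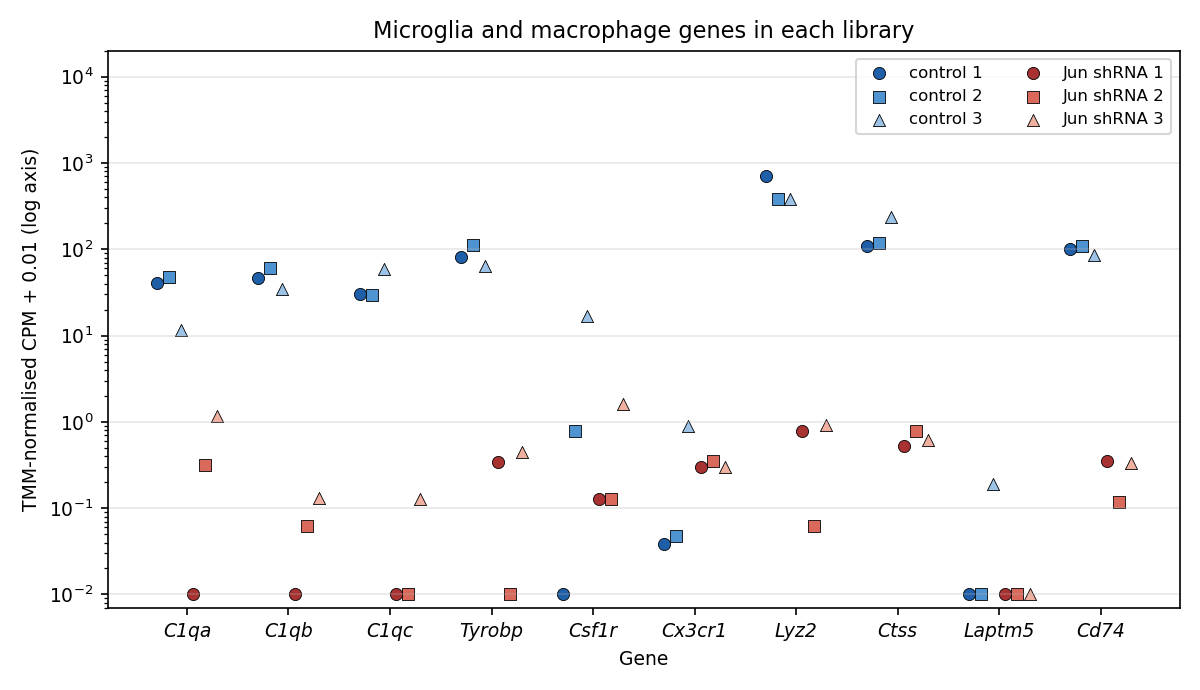
Level of each of the 10 genes (x axis) in each of the 6 libraries, as TMM-normalised CPM plus 0.01 on a log axis, with 1 point per library and no error bar. For C1qa, C1qb, C1qc, Tyrobp, Lyz2, Ctss and Cd74 the 3 control points lie above the 3 points of the libraries labelled Jun shRNA, and for Csf1r, Cx3cr1 and Laptm5 they do not.

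The 3 C1q chain genes lie side by side on chromosome 4 on the minus strand (C1qb 136880129 to 136886187, C1qc 136889804 to 136893065, C1qa 136895917 to 136898803, GRCm38). C1qb, the B chain (ENSMUSG00000036905), stood at 45.9, 60.5 and 34.2 CPM in control replicates 1, 2 and 3 and at 0, 0.0514 and 0.122 CPM in replicates 1, 2 and 3 labelled Jun shRNA. The groups did not overlap, and C1qb fell by 9.46 (log2 fold change, SE 1.84, adjusted p = 0.0444, edgeR). In pooled counts this was 8069 against 3, a ratio of 832 per unit of scaled depth (95% Clopper-Pearson interval 284 to 4033, counting error only). C1qc, the C chain (ENSMUSG00000036896), stood at 30.0, 29.7 and 59.1 CPM in controls, against 0, 0 and 0.117 CPM in the other group, 5414 counts against 2. Although its groups did not overlap either, its change of -9.73 (SE 2.12) missed the threshold with edgeR (adjusted p = 0.0564). C1qa, the A chain (ENSMUSG00000036887), stood at 40.8, 47.9 and 11.6 CPM in controls, against 0, 0.308 and 1.16 CPM in the other group. Its lowest control was above its highest level in the other group, and its change was -6.09 (SE 2.00, adjusted p = 0.172, edgeR). With DESeq2 C1qa and C1qc passed (adjusted p = 0.00215 and 3.66e-07), and also with limma-voom (0.0379 and 0.0138), where 6.96% and 2.46% of genes with an adjusted p passed as lower. Over all alternatives the adjusted p of C1qa ran from 0.00215 to 0.309 and that of C1qc from 3.66e-07 to 0.163.

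Counts that a control level would give at the depth of the libraries labelled Jun shRNA can be set beside those seen. At its lowest control level C1qb would give 503, 607 and 523 counts in replicates 1, 2 and 3 labelled Jun shRNA, and 0, 0.911 and 1.86 were seen. For C1qa, which had the lowest single control level of the 7, the same sum gives 170, 205 and 177 counts, where 0, 5.45 and 17.7 were seen. A level under 0.169 to 0.204 CPM, worth 3 counts, could not be told from 0 in those libraries. With all libraries thinned to the smallest total C1qb stood at -9.46, Cd74 at -8.16 and Tyrobp, no longer past the threshold, at -7.93 (adjusted p = 0.0481, 0.0216 and 0.0610, edgeR).

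Tyrobp, the adaptor that carries signals of Trem2 and Fc receptors (ENSMUSG00000030579, chromosome 7, 30413760 to 30417585), stood at 81.9, 112 and 64.9 CPM in control replicates 1, 2 and 3. In replicates 1, 2 and 3 labelled Jun shRNA it stood at 0.331, 0 and 0.436 CPM. The groups were far apart, and Tyrobp fell by 8.33 (SE 1.68, adjusted p = 0.0468, edgeR). Csf1r, the receptor on which microglial survival depends (ENSMUSG00000024621, chromosome 18, 61105572 to 61132149), was at 0, 0.771 and 16.7 CPM in controls, against 0.117, 0.118 and 1.59 CPM in the other group. Only control replicate 3 held it in quantity, with 464 counts, and the groups overlapped (change -3.26, SE 2.34, adjusted p = 0.514, edgeR). Without that library Csf1r did not pass the low-count filter. Cx3cr1, the fractalkine receptor (ENSMUSG00000052336, chromosome 9, 119901616 to 120069879), stood at 0.0282, 0.0381 and 0.877 CPM in controls, 1.03, 3.43 and 24.4 counts. In the other group it stood at 0.286, 0.341 and 0.292 CPM, above control replicates 1 and 2 and below control replicate 3. Cx3cr1 was too low for the test, and its fitted change without the filter was -0.15.

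Lyz2, the lysozyme of macrophages (ENSMUSG00000069516, chromosome 10, 117277331 to 117282321), was the most abundant of the 10, at 709, 378 and 378 CPM in control replicates 1, 2 and 3. The libraries labelled Jun shRNA held 0.771, 0.0518 and 0.917 CPM. Lyz2 fell by 9.74 (SE 1.08, adjusted p = 0.00512, edgeR), the smallest adjusted p of the 8 tested, and its call held without each of the 6 libraries in turn (adjusted p 0.00501 to 0.0443). It held 63.3% of the counts of the 10 genes in control replicate 1 (95% Wilson interval 62.9 to 63.8), 44.2% in replicate 2 (43.8 to 44.5) and 42.7% in replicate 3 (42.1 to 43.3). Lyz1, made by Paneth cells and some macrophages, is a close copy: the annotated transcripts were 96% identical over 1262 aligned bases. Of the 1286 windows of 31 bases in the Lyz2 transcript, 67.2% do not occur in that of Lyz1. Lyz1 was listed at 1.04 counts in control replicate 2, 0.954 in the library labelled Jun shRNA replicate 3 and 0 elsewhere, so the authors' estimate gave nearly all lysozyme counts to Lyz2, and its level is uncertain to that extent.

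Ctss, cathepsin S, a lysosomal protease that trims the invariant chain (ENSMUSG00000038642, chromosome 3, 95526786 to 95556403), stood at 110, 118 and 234 CPM in control replicates 1, 2 and 3. In the other group it stood at 0.514, 0.777 and 0.612 CPM. Ctss fell by 7.90 (SE 0.99, adjusted p = 0.00785, edgeR), with no overlap between groups. Cd74, the invariant chain itself (ENSMUSG00000024610, chromosome 18, 60803848 to 60812646), stood at 102, 109 and 85.0 CPM in controls, against 0.337, 0.108 and 0.321 CPM in the other group. It varied least of the 10 over controls (coefficient of variation 12.4%), and it fell by 8.55 (SE 1.24, adjusted p = 0.0142, edgeR). Laptm5, a lysosomal membrane protein of blood-lineage cells (ENSMUSG00000028581, chromosome 4, 130913125 to 130936141), was listed at 0 in 5 libraries and at 4.99 counts in control replicate 3, and was too low for the test. Counts of 0 in control replicates 1 and 2 allow Laptm5 up to 0.0823 and 0.0333 CPM.

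The calls differed in how far they rested on single libraries. The call of Ctss ended without control replicate 3 (adjusted p = 0.0681, edgeR) and held without each other library. The call of Cd74 ended without any 1 control and held without any 1 library labelled Jun shRNA (0.0437 to 0.0812 over the 6). The calls of C1qb (0.0925 to 0.161) and Tyrobp (0.0607 to 0.175) ended with any library left out. Without the library labelled Jun shRNA replicate 3, C1qb stood at -10.50 and Tyrobp at -9.01, and without replicate 2 of that group Tyrobp stood at -7.73. Among genes that did not pass, leaving out Jun shRNA replicate 3 moved C1qa to -7.86 and Csf1r to -5.55. It moved C1qc to -13.53, a fitted value that is no bound, since both libraries then left in that group were at 0. Csf1r stood at -3.90 without control replicate 1 and at -0.74 with limma-voom. Scaling by median of ratios, upper quartile or library totals also ended the calls of C1qb (0.0507, 0.0591 and 0.0605) and Tyrobp (0.0539, 0.0596 and 0.0621), and thinning that of Tyrobp (0.0610).

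Per length, in TPM (transcript counts divided by annotated length and scaled to a fixed total per library), Lyz2 was highest in controls at 447 ± 153 TPM (SD, n = 3). Tyrobp followed at 176 ± 64.7 TPM, Ctss at 137 ± 57.1 TPM and Cd74 at 94.8 ± 17.4 TPM (n = 3 each). The C1q chains stood at 52.7 ± 19.0 TPM for C1qb, 41.5 ± 16.3 TPM for C1qc and 39.3 ± 24.3 TPM for C1qa (n = 3 each). Csf1r stood at 1.59 ± 2.54 TPM, and Cx3cr1 and Laptm5 were below it, with means of 0.0933 and 0.0798 TPM. The steps from Lyz2 to Tyrobp, from Cd74 to C1qb and from C1qa to Csf1r were larger than the spread, with no overlap between control libraries. The ranges of Tyrobp and Ctss, of Ctss and Cd74, of the 3 C1q chains, and of Csf1r, Cx3cr1 and Laptm5 overlapped.

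Across the 3 control libraries the 7 abundant genes did not rise and fall as one. C1qa, C1qb, Tyrobp and Cd74 were highest in control replicate 2 and lowest in replicate 3. C1qc and Ctss were highest in replicate 3, and Lyz2 in replicate 1. Relative to each gene's own mean over controls, the 7 genes ran from 0.714 (Ctss) to 1.45 (Lyz2) in replicate 1, from 0.750 (C1qc) to 1.43 (C1qa) in replicate 2 and from 0.346 (C1qa) to 1.52 (Ctss) in replicate 3. Their medians were 0.979, 1.10 and 0.774. With 3 libraries no correlation is given. As a description, the ratio of 2 genes was followed over the controls for all 21 pairs of the 7. It changed by a median of 2.80-fold between the libraries where it was highest and lowest. The ratio of C1qb to Tyrobp changed by 1.06-fold and that of C1qc to Ctss by 1.08-fold, the smallest of the 21, whereas that of C1qa to C1qc changed by 8.23-fold, the largest. These pairs were singled out after their values were seen. The coefficient of variation over controls had a median of 39.2% for the 7 genes and 50.5% for the 7266 tested genes at 1 CPM or more in all controls.

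**Figure D2:**
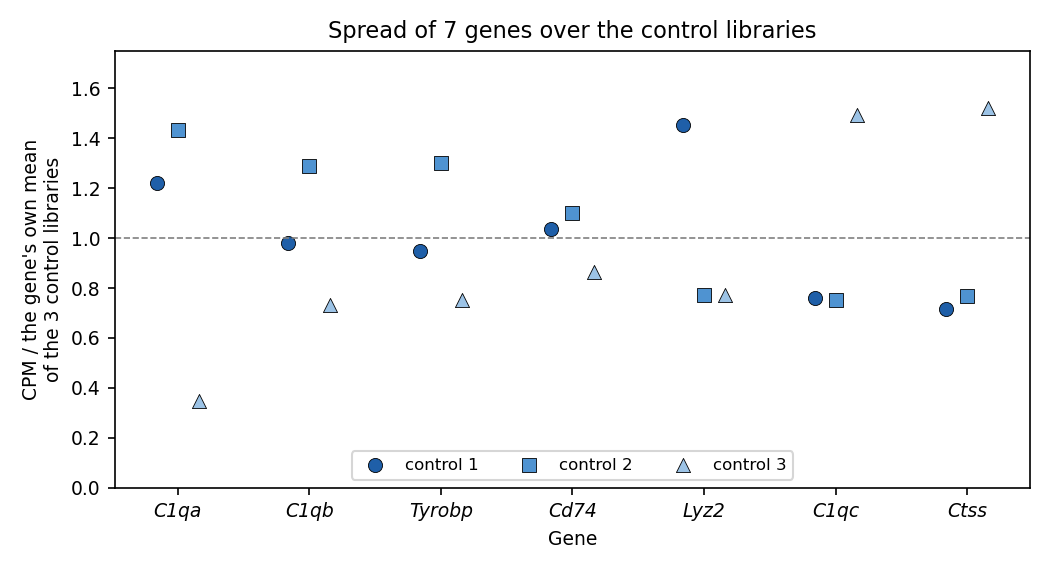
CPM of 7 genes (x axis) in each control library divided by that gene's mean over the 3 controls (y axis, linear, from 0), 1 point per library, with a dashed line at 1. C1qa, C1qb, Tyrobp and Cd74 are highest in control replicate 2 and lowest in replicate 3, while C1qc and Ctss are highest in replicate 3 and Lyz2 in replicate 1.

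The C1q chains, which join in equal numbers in the protein, therefore took different shares of C1q counts in different controls. C1qc held 25.7% (95% Wilson interval 24.4 to 27.1) of C1q counts in control replicate 1 and 21.5% (20.8 to 22.3) in replicate 2, but 56.4% (54.5 to 58.1) in replicate 3. C1qa held 34.9% (33.5 to 36.4), 34.7% (33.8 to 35.5) and 11.02% (9.93 to 12.2), and C1qb 39.3% (37.9 to 40.8), 43.8% (42.9 to 44.7) and 32.6% (30.96 to 34.4). Replicate 3 was the farthest from the others for each chain. Between replicates 1 and 2 the intervals overlapped for C1qa and not for C1qb or C1qc. Without molecular identifiers a read is not a separate molecule, and these intervals hold counting error alone.

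Transcript counts showed a like unevenness. They are estimates that divide a gene's reads between its transcripts. The intervals hold counting error alone and leave out the error of that division. The Tyrobp transcript of 597 bases held 84.9% (95% Wilson interval 83.5 to 86.3) of Tyrobp transcript counts in control replicate 1, 35.9% (35.0 to 36.9) in replicate 2 and 68.3% (66.2 to 70.4) in replicate 3, with nearly all of the rest in one of 564 bases. Both are annotated as protein coding. The Cd74 transcript of 1410 bases held 20.4% (19.2 to 21.8), 20.04% (19.2 to 20.9) and 61.7% (59.8 to 63.6) of Cd74 transcript counts, and that of 1224 bases most of the rest. For Csf1r all 77 transcript counts of control replicate 2 were on a transcript of 4701 bases and all 419 of replicate 3 on one of 3870 bases. One of the pair of Ctss transcripts held 99.7%, 92.4% and 99.9% of Ctss transcript counts in control replicates 1, 2 and 3 (lowest interval 91.9 to 92.9). Too few counts were left in the libraries labelled Jun shRNA to give such shares.

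**Figure D3:**
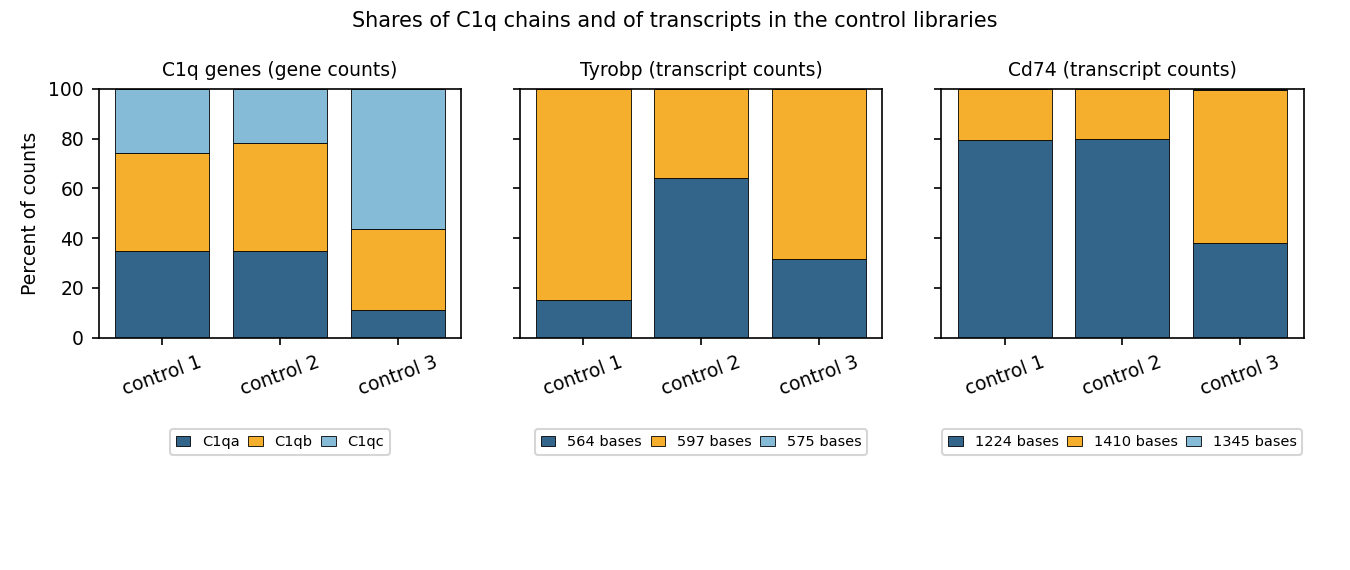
Stacked shares in percent (y axis, from 0 to 100) in the 3 control libraries (x axis): C1qa, C1qb and C1qc among C1q gene counts, and the transcripts of Tyrobp and of Cd74 among the transcript counts of each gene. C1qc takes 56.4% in control replicate 3 against 25.7% and 21.5% in the others, the 1410-base Cd74 transcript takes 61.7% there, and the 597-base Tyrobp transcript ranges from 35.9% to 84.9%.

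The label of microglia and macrophage RNA was set against 126 further genes in 10 lists of microglial, macrophage and leukocyte biology. At 1 CPM or more, 37 of the 126 were present in all 3 controls, 47 in 1 or 2 controls and 42 in none, and 18 were present in all 3 libraries labelled Jun shRNA. The lysosome list, whose genes other retinal cells also use, gave 16 of the 37 and 10 of the 18. Of the 14 homeostatic microglia genes 5 were present in all 3 controls. Among the 93 that reached 1 CPM in some library, 39.8% were in all controls and 50.5% in 1 or 2, against 42.1% and 41.7% of all 17241 such genes. In all 3 libraries labelled Jun shRNA 19.4% of the 93 were present, against 41.1% of the 17241. P2ry12, a purinergic receptor of resting microglia, stood at 70.8, 58.1 and 33.4 CPM in controls. Fcrls, an Fc receptor-like gene of mouse microglia, stood at 34.1, 24.9 and 51.5 CPM, and Ly86, a partner of a Toll-like receptor relative, at 16.6, 19.3 and 114 CPM. All 3 were at or below 0.175 CPM in the libraries labelled Jun shRNA, without overlap, yet missed the threshold (adjusted p = 0.0533, 0.0553 and 0.0553, edgeR). Selplg, on the same homeostatic list, went the other way. It stood at 0.283, 0.9997 and 1.88 CPM in controls and 3.66, 4.35 and 5.02 CPM in the other group (adjusted p = 0.464, edgeR). Of the 6 tested genes of that list 5 had a negative change. Other defining microglial genes were at or near 0 in every library: Tmem119 reached at most 0.841 counts, Cd14 0.945 counts, Irf8 3.84 counts and P2ry13 0 counts. Still others were present in 1 control alone, such as Gpr34 with 1891 counts and Ptprc (CD45) with 2630 counts in control replicate 2. The marker set was thus present in part. Cx3cr1, Laptm5, Spi1, Irf8 and Tmem119 were under 1 CPM in all 3 controls, and Csf1r in control replicates 1 and 2. The genes in this paragraph other than P2ry12, Fcrls and Ly86 were picked out after their values were seen.

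**Figure D4:**
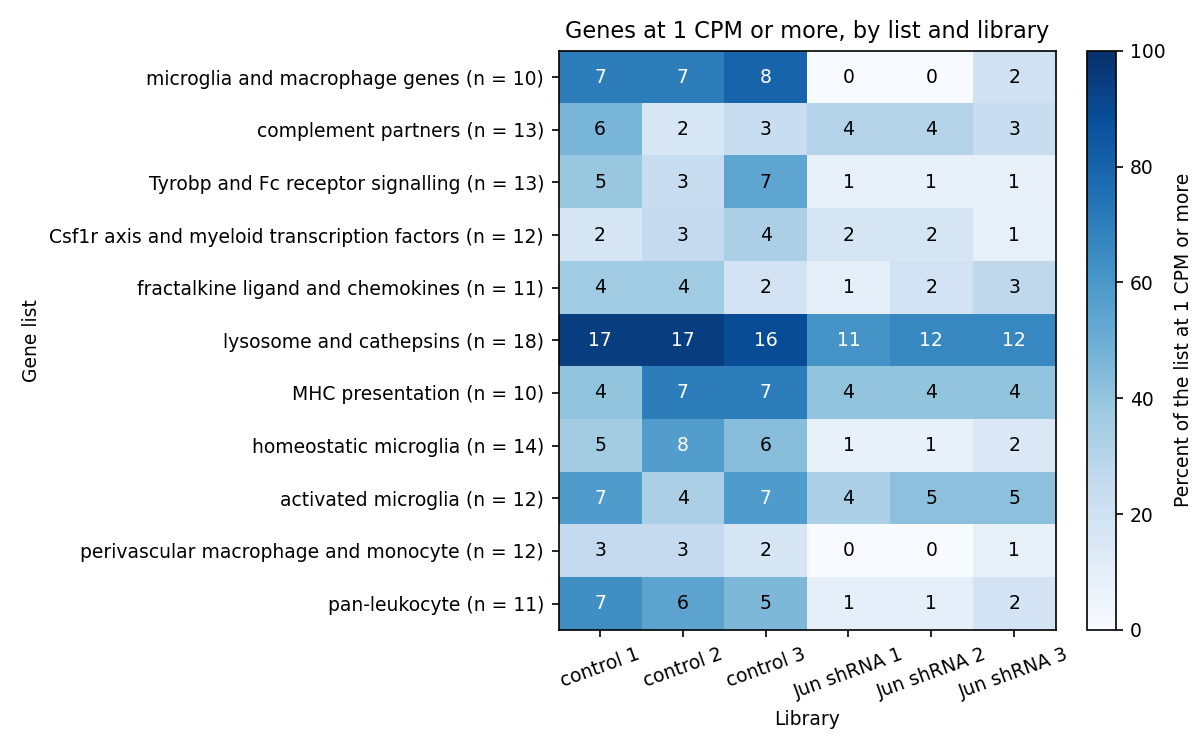
Number of genes at 1 CPM or more in each list (rows, list size in brackets) and library (columns), with colour giving the percent of the list. The 10 genes of this report have 7, 7 and 8 in control replicates 1, 2 and 3 and 0, 0 and 2 in those labelled Jun shRNA, while the lysosome list keeps 11 to 12 of 18 there.

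Partners and regulators of C1q were mostly low or uneven. Of 13 complement genes 6 passed the filter and 0 passed the test in either direction (0 at an unadjusted p under 0.05, edgeR, a level that 16.8% of all tested genes reached). Their median change was -0.39, beside -0.12 over all tested genes. Without the filter it was 0.96 over all 13 genes of the list, beside -0.0056 over 33087 genes. The C1q-bound proteases C1ra and C1s1 reached at most 71.6 and 2.83 counts in a library. Cd59a, which blocks the membrane attack complex, stood at 88.1, 59.9 and 20.01 CPM in controls and 0.233, 0.916 and 43.1 CPM in the other group. Serping1, the C1 inhibitor, stood at 3.47, 14.6 and 33.3 CPM and at 0.184, 3.88 and 0.117 CPM. Cd55, a decay factor for complement, was high in control replicate 3 alone, at 61.9 CPM.

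Around Tyrobp, 4 of 13 signalling genes passed the filter and 0 passed the test (median change of the 4, -5.41). Without the filter the median was -4.39 over all 13. An unadjusted p under 0.05 (edgeR) was reached by 2 of the 4, against 16.8% of all tested genes. A gene kept by the filter only through its control counts had to differ, so this share is a description alone. Fcer1g, the Fc receptor gamma chain that shares Tyrobp's signalling motif, stood at 33.3, 29.8 and 43.3 CPM in controls, against at most 0.231 CPM in the other group (change -7.65, SE 1.66, adjusted p = 0.0564, edgeR). Trem2, a lipid receptor that needs Tyrobp, held 6.30, 1608 and 1121 counts in control replicates 1, 2 and 3 and 0, 0.943 and 15.8 in the other group. The Fc receptor genes Fcgr2b and Fcgr3 were likewise uneven. Fcgr2b stood at 91.8, 0.805 and 0.303 CPM in controls and Fcgr3 at 45.5, 18.1 and 0.139 CPM, and neither exceeded 0.214 CPM in the other group. Syk, the kinase downstream of Tyrobp, reached at most 8.04 counts (named after its value was seen).

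Ligands and transcription factors of the Csf1r axis were scarce. Csf1 and Il34, the ligands of Csf1r, reached at most 3.66 and 1.88 counts in a library. Of the 12 genes in this list 4 passed the filter and 0 the test (0 at an unadjusted p under 0.05, median change -2.13). Without the filter the median was -0.81 over the 10 with a rounded count. The 3 most abundant were Mef2c, also a neuronal factor, Maf and Irf5. Mef2c stood at 10.8, 27.0 and 54.9 CPM in controls and 54.7, 69.6 and 69.9 CPM in the other group. Maf stood at 0.330, 4.17 and 85.2 CPM in controls and 1.01, 16.3 and 0.402 CPM in the other group. Irf5 stood at 0.0296, 3.75 and 5.51 CPM and at 0, 0.515 and 0.675 CPM. Cx3cl1, the ligand of Cx3cr1, held 17.5 counts in control replicate 3, 1.29 in the library labelled Jun shRNA replicate 3 and 0 elsewhere. Of 11 ligand and chemokine genes 3 passed the filter and 0 the test (2 at an unadjusted p under 0.05, median change -4.79). Without the filter that median was -4.56 over the 10 with a rounded count. Ccl2 and Ccl12, which attract monocytes, stood at 43.2, 5.60 and 16.9 CPM and at 10.3, 2.94 and 28.4 CPM in controls, with at most 1.22 and 0.0562 CPM in the other group. Ccl9 was high in control replicate 1 alone, at 58.3 CPM.

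Lysosomal genes, which rods and other retinal cells also use, gave the most calls among the lists of neighbours. Of 18 genes 17 passed the filter, with a median change of -2.79, or -2.74 over all 18 without it. Of the 17, 4 passed as lower and 0 as higher, against 1.35% and 0.32% of all tested genes. These 4 were Ctsb, Ctsd and Ctsz, all cathepsins, and Hexa, a hexosaminidase subunit. Ctsb stood at 595, 1486 and 532 CPM in controls, against 15.96, 24.5 and 87.4 CPM in the other group, and fell by 4.35 (SE 0.78, adjusted p = 0.0355, edgeR). Ctsd, Ctsz and Hexa had changes of -6.05, -8.91 and -8.90 (SE 0.63, 1.28 and 1.42, adjusted p = 0.00341, 0.0133 and 0.0211, edgeR). Cst3, the secreted cathepsin inhibitor cystatin C, stood at 3775, 3255 and 5642 CPM in controls and 4051, 1499 and 2264 CPM in the other group, and Ctsl at 625, 291 and 848 CPM and at 239, 175 and 521 CPM. Neither passed (adjusted p = 0.372 and 0.430, edgeR). The list as a whole was therefore uneven, with 10 of 18 genes still at 1 CPM or more in all 3 libraries labelled Jun shRNA.

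Cd74 serves MHC class II, whose chains were uneven in controls. H2-Aa held 3.49, 3896 and 593 counts in control replicates 1, 2 and 3, H2-Ab1 0, 1.86 and 609, and H2-Eb1 246, 1099 and 0. Each had at most 2.43 counts in any library labelled Jun shRNA, and all 3 failed the filter. Cd74 was thus steady over controls where the chains it escorts were not. Other genes of the list differed in direction. Ciita held 0.795, 1.61 and 0 counts in controls and 1.59, 146 and 70.0 in the other group. H2-DMb1 held 0.868, 0 and 0 counts and 35.0, 0 and 0.808 counts. H2-DMa held 0.841, 856 and 1157 counts in controls and 0, 0 and 2.51 in the other group. These genes were named after their values were seen, and none passed the filter. Among MHC class I genes H2-D1 stood at 325, 600.4 and 166 CPM in controls, against 8.98, 4.83 and 31.4 CPM in the other group, and fell by 4.59 (SE 0.91, adjusted p = 0.0454, edgeR). H2-K1 had a log2 fold change of -3.47 (adjusted p = 0.228, edgeR) and B2m, their shared light chain, of -0.67 (adjusted p = 0.509, edgeR), neither past the threshold. In all, 4 of 10 presentation genes passed the filter, with a median change of -2.74, or -4.24 over all 10 without it. Of the 4, 1 passed as lower and 0 as higher, against 1.35% and 0.32% of all tested genes.

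No gene on the lists of microglial state passed the test. Of 14 homeostatic genes 6 passed the filter and 0 the test (median change of the 6, -7.80). Without the filter the median was -1.52 over the 13 with a rounded count. An unadjusted p under 0.05 (edgeR) was reached by 4 of the 6, against 16.8% of all tested genes. Genes kept by the filter only through control counts had to differ, so this share describes them alone. Of 12 activation genes 5 passed the filter, 0 the test and 2 had an unadjusted p under 0.05 (median change -1.58). Over the 10 with a rounded count the median without the filter was -1.23. Apoe, a lipid carrier that Müller glia also make, stood at 143, 119 and 72.9 CPM in controls and 0.307, 5.88 and 3.67 CPM in the other group (adjusted p = 0.0767, edgeR). The tetraspanins Cd9 and Cd63 had log2 fold changes of -1.58 and -0.63 (adjusted p = 0.462 and 0.678, edgeR). Of 12 perivascular macrophage and monocyte genes 1 passed the filter and 0 the test (0 at an unadjusted p under 0.05). Ms4a7, a marker of non-parenchymal macrophages, stood at 27.0, 13.8 and 0.144 CPM in controls. Lyve1 and Plac8 peaked at 8.86 and 7.18 CPM in control replicate 2. Of 11 pan-leukocyte genes 5 passed the filter and 0 the test, with 2 at an unadjusted p under 0.05 (median change -3.35). Without the filter that median was -5.46 over all 11. Cd53, a leukocyte tetraspanin, stood at 43.1, 38.1 and 0.0713 CPM in controls, and Cyba, an oxidase subunit, at 5.40, 10.9 and 17.6 CPM. Arhgdib stood at 14.8, 1.03 and 25.6 CPM in controls but at 64.8 CPM in 1 library labelled Jun shRNA.

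Markers of other cell types moved in part with the 10 genes. For the calls that follow, 1.35% of all tested genes passed as lower and 0.32% as higher. Of 7 red cell genes 4 passed the filter and 2 passed as lower, with summed levels of 153 to 245 CPM in controls, against at most 0.474 CPM in the other group. Hbb-bs, a haemoglobin gene, stood at 86.4, 74.8 and 74.9 CPM in controls and 0.138, 0 and 0.0790 CPM in the other group, and Hba-a1, whose reads may be split with Hba-a2, was listed at 0 in all 3 of the latter. Alas2 and Slc4a1, other genes of red cells and their precursors, reached at most 81.4 and 8.28 counts. Of 10 endothelial and pericyte genes 3 passed the filter and 1, Rgs5, a pericyte gene, passed as lower, at 37.9, 9.02 and 72.5 CPM in controls, and no higher than 0.0887 CPM in the other group. The summed level of that list was 41.8 to 104 CPM in controls and 21.4 to 70.1 CPM in the other group. Kdr, an endothelial receptor, stood at 9.73, 26.8 and 14.5 CPM in controls and 18.1, 56.5 and 62.0 CPM in the other group, with overlap between groups (adjusted p = 0.553, edgeR). Müller glia markers summed to 2110 to 2319 CPM in controls and 348 to 579 CPM in the other group, with 12 of 12 past the filter and 0 past the test (4 at an unadjusted p under 0.05). Bipolar markers summed to 688 to 778 CPM in controls and to 948 to 1543 CPM in the other group, and 1 of 8, Prkca, passed as higher. Krt18, a keratin listed with pigment epithelium, passed as lower, at 124 to 206 CPM in controls, against at most 0.321 CPM in the other group, while Rpe65 and Best1, which define that tissue, reached at most 1.16 and 0.827 counts. Ttr, also on that list, stood at 6.87, 19.9 and 19.4 CPM in controls, and no higher than 0.0605 CPM in the other group (adjusted p = 0.0718, edgeR). The part of these cells in the result was not tested.

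The 2 most abundant genes of each remaining list follow. The Müller glia genes Clu, a chaperone, and Rlbp1, a retinoid carrier, held 1160 to 1233 CPM and 256 to 475 CPM in controls. In the libraries labelled Jun shRNA Clu held 9.51 to 159 CPM and Rlbp1 0.689 to 122 CPM, and both missed the threshold (adjusted p = 0.0652 and 0.361, edgeR). Of the 14 rod genes 10 passed as lower, against 1.35% of all tested genes. Sag, the rod arrestin, fell by 3.13 (SE 0.15, adjusted p = 7.06e-05, edgeR), while Gngt1, a rod transducin subunit, had a log2 fold change of 1.01 (adjusted p = 0.204, edgeR). The bipolar genes Pcp2 and Isl1 had log2 fold changes of 1.02 and -0.64 (adjusted p = 0.307 and 0.578, edgeR). Of 8 cone genes 1, Gnb3, passed as lower (-2.63, adjusted p = 0.0444, edgeR), and Opn1sw, the short-wave opsin, had -1.47 (adjusted p = 0.356). Of 4 astrocyte genes 0 passed, with Gfap at -4.43 and S100b at -0.92 (adjusted p = 0.340 and 0.819, edgeR). Of 12 amacrine, horizontal and ganglion cell genes 0 passed, with Rbpms at -1.28 and Gad1 at -5.89 (adjusted p = 0.794 and 0.184, edgeR). Prkca, Rpe65, Best1, Alas2, Slc4a1 and, among the cathepsin group, Ctsd, Ctsz and Hexa were named after their values were seen.

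Markers of neutrophils and mast cells were low in most libraries, and those of lymphocytes were uneven. The 12 lymphocyte markers summed to 57.6 CPM in control replicate 1, where Cd8a stood at 29.5, Cd4 at 15.7 and Cd3g at 10.7 CPM, and to 0.507 and 1.40 CPM in control replicates 2 and 3. Libraries labelled Jun shRNA held 1.43 to 10.3 CPM. The 7 neutrophil and mast cell markers, with S100a8, S100a9 and Cpa3 at 0 in all 6 libraries, exceeded 0.397 CPM only in control replicate 2, through Csf3r at 5.86 CPM. Neutrophil RNA was thus hardly present in any library, whereas 4 of the 12 lymphocyte genes reached 1 CPM in control replicate 1. In replicates 1 and 2 labelled Jun shRNA 1 and 3 of them did.

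**Figure D5:**
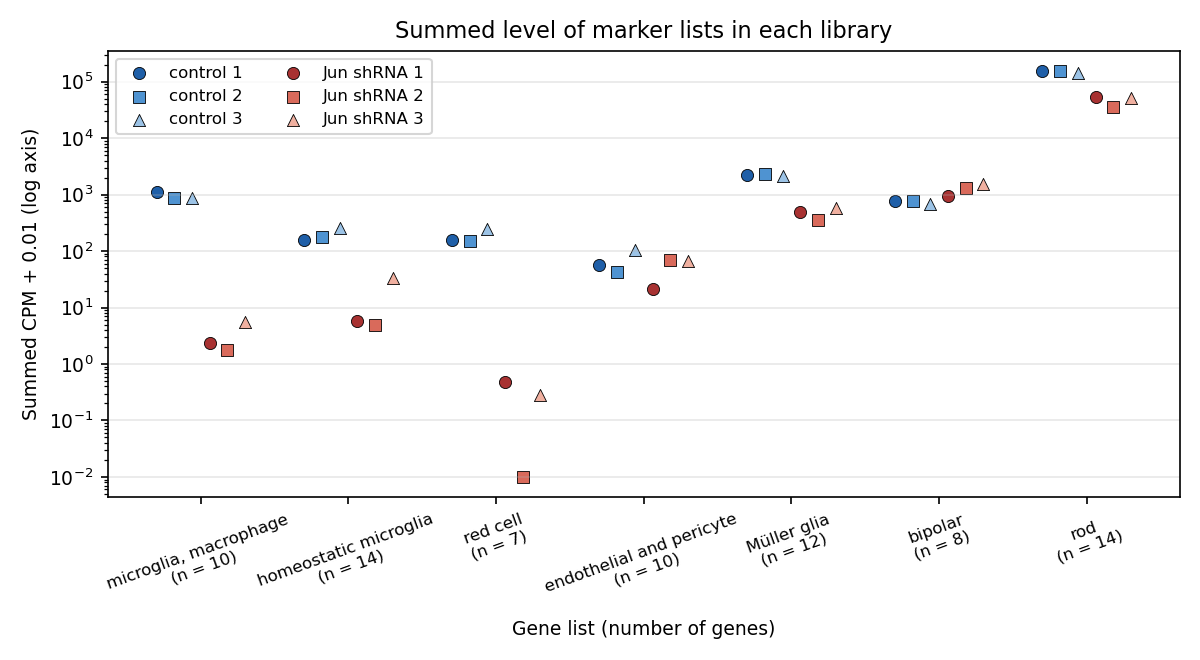
Summed CPM plus 0.01 (y axis, log) of the 10 genes and 6 other marker lists (x axis, list size in brackets) in each of the 6 libraries, 1 point per library and no error bar. The 10 genes sum to between 856 and 1120 CPM in controls and between 1.76 and 5.57 CPM in the libraries labelled Jun shRNA, red cell genes separate in the same direction, and endothelial and pericyte genes overlap.

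Genes whose profile over the 6 libraries was closest to the mean of the 10 genes were ranked by root mean square difference of centred log2 CPM, over 12807 other tested genes. The 5 closest were Arf5, CT025652.2, Crabp1, Aif1 and Pym1, at 0.34 to 0.53 beside a median of 3.41 over all genes. Aif1 encodes IBA1, the standard microglial stain. It stood at 23.7, 17.9 and 23.2 CPM in controls and 0.127, 0.0899 and 0.251 CPM in the other group. Arf5, a vesicle trafficking GTPase, stood at 16.1, 14.9 and 22.8 CPM and at 0.300, 0.0965 and 0.686 CPM. None of the 5 passed the test (adjusted p 0.0696 to 0.132, edgeR). Among the 50 closest genes 5 (10%) were on the lists of myeloid genes, or 9.09% of the 55 listed genes ranked, which made up 0.429% of all genes ranked. The lists were chosen with earlier results known. A listed gene kept by the filter only through control counts had to resemble this profile. These shares are thus a description and no support for the label. The 10 genes themselves lay at 1.02 (Ctss) to 3.54 (Cx3cr1) from their own mean. Over the 3 controls alone Ctss and C1qc were closest to that mean, at 0.13 and 0.18, and Csf1r farthest, at 2.84.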

How the data were processed

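Members, gene lists and the rule for genes to be named were chosen with earlier results of these data known. The authors deposited estimated counts per gene and per transcript, and a normalised table named CPM. Per the submitters' processing notes, Trimmomatic 0.39, kallisto 0.44.0 and edgeR 3.28.1 were used, in roles that are not stated, while no build of the genome is named in these sources. In the deposited normalised table, a signal, counts were divided by 1 factor per library and columns sum to unequal totals above those of true CPM, so it served only as an alternative. Estimated counts were rounded, filtered with filterByExpr, TMM-scaled and tested with edgeR 4.0.16 (R 4.3.3), Benjamini-Hochberg adjusted over 12815 genes, threshold 0.05. Levels divide unrounded counts by TMM-scaled library size. The standard error is the log2 fold change over the square root of F. TPM used 134456 of 136550 transcripts found in GENCODE vM21 (GRCm38), whose coordinates equal the deposited ones for 98.2% of shared genes and 8 of the 10 members. Deposited coordinates are printed.

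Alternatives were 3 other scalings, 2 other filters, DESeq2 1.42.0, limma-voom and limma-trend (limma 3.58.1) on the signal plus 0.5 or 2, thinning, omission of patch sequences, leaving out each library in turn and a replicate block. Detection at 0.5 and 5 CPM was added after seeing the data. The edgeR function was tested on simulated counts. Genes named were the 10 members, Jun, partners of the members, the 3 most abundant genes of each myeloid list, the 2 most abundant of each other list and the 5 of closest profile. Apoe was on 2 lists.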

Additional observations from a re-analysis of the deposited data

How the results depend on the processing

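All 8 tested genes of the 10 kept a negative change under every alternative in which they were tested. Genes called lower among the 10, 5 in the test reported, were 3 under median of ratios, upper quartile and library totals, 2 with the replicate block, and 1 to 3 with 1 library left out. Over all genes 214 calls (173 lower) became 737 (573) without a filter, 1955 (1122) with DESeq2, 442 (315) with limma-voom, 615 (512) and 553 (475) with limma-trend on the signal plus 0.5 and 2, 97 (78) with the replicate block, and 36 to 110 (31 to 95) with 1 library left out. Lower calls were 89 with upper quartile, 79 with library totals and 98 after thinning. These scalings moved the median gene by 0.15 (median of ratios), 0.39 (upper quartile) and 0.50 (library totals) on the log2 scale, less than any change of the 7 abundant genes. Same-numbered libraries did not vary together (correlations of 0.00042, 0.0080 and -0.015). The labels state no pairing, and these values cannot exclude one.

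C1qb lost its call at -9.33, -9.07 and -8.995 (median of ratios, upper quartile, library totals) and -9.73 (replicate block), and Tyrobp at -8.17, -7.96 and -7.92, at -7.93 after thinning and at -8.73 with the replicate block. Cd74 lost it at -8.65 with the replicate block. C1qa passed at -6.07 with DESeq2 and -7.21 with limma-voom. C1qc passed at -9.90 without a filter, -9.85 with DESeq2, -9.31 with limma-voom, and -6.99 and -5.13 with limma-trend on the signal plus 0.5 and 2. With 1 library left out, C1qb ran from -10.50 to -8.96, Tyrobp from -9.01 to -7.73, Cd74 from -8.83 to -8.18, Ctss from -8.13 to -7.46, Lyz2 from -10.27 to -9.18, C1qc from -13.53 to -9.17, C1qa from -7.86 to -5.55 and Csf1r, not tested without control replicate 3, from -5.55 to -2.79. The cause of these changes was not tested. Listed myeloid genes present in all controls were 39 at 0.5 CPM and 31 at 5 CPM. Depth limits levels under 3 counts, 0.0333 to 0.204 CPM.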
